A study of Homo sapiens with 4 samples.

Results

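The cholesterol and fatty acid synthesis genes described here are 33 named rows of a table of 28277 genes, chosen by symbol from pathway membership: 7 enzymes of the mevalonate pathway, 11 enzymes from squalene to cholesterol, 5 regulators, 3 sterol carriers and 7 genes of fatty acid synthesis. All 33 were found in the table and all 33 passed the low-count filter. The list is not the whole pathway. The RNA-seq data came from NCI-H520, an established cell line of lung squamous cell carcinoma with the genotype given as WT, in 2 libraries after 12 h with Hx1R8 at 10 µM and in 2 libraries with ultrapure water instead (Vehicle). Both groups were kept in RPMI-1640 medium with serum at 15%. By its title the study is about interrupting SOX2 self-association, and the question put to the genes here is whether lipid synthesis transcripts differed with Hx1R8. The labels do not describe the composition of Hx1R8, and a single cell line at 1 dose and 1 time limits what the comparison can show.

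Total counts were 17259403 and 20920857 in the Hx1R8 libraries, and 17483349 and 17352323 in the Vehicle libraries. Among squamous markers, SOX2 lay at 497 to 541 CPM (counts scaled to library size) and KRT6A at 17.1 to 19.9 CPM over the 4 libraries, whereas TP63 lay at 0.400 to 0.715 CPM and KRT14 and DSG3 had no read in any library, which allows up to 0.143 to 0.174 CPM. The neuroendocrine marker CHGB lay at 524 to 531 CPM. The immune markers PTPRC and CD3E had no read in any library, CD79A reached 0.290 CPM at most, and CD68, CD14 and LYZ lay between 0.580 and 1.37 CPM. Vehicle replicates 1 and 2 differed from each other more than any other pair of libraries, with a chi-square of 2.95 per gene against 1.485 to 2.43 for the other pairs. Across all 14482 tested genes, 2 genes were called higher (0.0138%) and 1 was called lower (0.00691%) in Hx1R8 by edgeR's quasi-likelihood test with Benjamini-Hochberg adjustment.

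Cholesterol and fatty acids are both built from cytosolic acetyl-CoA, which ACLY makes from citrate. The mevalonate pathway turns it into isoprenoid units, which are joined into squalene and then closed and trimmed into cholesterol, while acetyl-CoA carboxylase and fatty acid synthase build palmitate, which elongases and desaturases then modify. The enzymes of both branches are controlled by the SREBP transcription factors, which SCAP escorts out of the endoplasmic reticulum when membrane sterol is low and which the INSIG proteins hold back when it is high. NF-Y, which binds CCAAT boxes, and SP1, which binds GC boxes, are known partners of the SREBPs at these promoters.

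Promoter windows of RefSeq (GRCh38.p14), running from 250 bases before to 50 bases after a gene's start, were matched for 29 of the 33 genes. Of these 29 genes, 21 (72.4%) held CCAAT on either strand in a listed window, against 43.2% of the 11065 tested genes with a window and 39.7% of all 27305 genes with one. The GC box GGGCGG was held by 28 of the 29 genes (96.6%), against 76.9% of tested genes, and the E-box CACGTG by 4 of the 29 (13.8%), against 12.5%. The sterol element, searched as TCACCCCAC on both strands, was found in 1 of the 29 (3.45%), against 0.542% of tested genes. Searched with any base at 1 place, as TCACNCCAC, which also takes in every TCACCCCAC, it was again found in 1 of the 29 and in 1.40% of tested genes. These shares describe letters within short windows and are not sites of binding. The gene with the sterol element was SREBF2 itself, where it lay 133 to 125 bases before the start, with a CCAAT box on the other strand 106 to 102 bases before the start.

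The windows of 5 genes are shown to place these letters in a sterol-regulated transcription factor, in an enzyme and a retention factor known as targets of the SREBPs, and in the 2 genes at the ends of the range of differences described further on. Capitals mark the sterol element and each CCAAT box, written ATTGG where it lies on the opposite strand.
SREBF2, the sterol-regulated transcription factor, chr22:41832855-41833154, plus strand: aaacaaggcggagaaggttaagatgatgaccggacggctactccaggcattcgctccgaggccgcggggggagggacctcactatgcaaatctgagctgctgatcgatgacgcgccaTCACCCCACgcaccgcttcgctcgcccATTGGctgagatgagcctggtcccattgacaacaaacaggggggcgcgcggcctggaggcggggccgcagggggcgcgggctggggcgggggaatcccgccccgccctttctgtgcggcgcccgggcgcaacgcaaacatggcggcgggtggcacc
HMGCS1, the synthase at the entry of the mevalonate pathway, chr5:43313363-43313662, minus strand: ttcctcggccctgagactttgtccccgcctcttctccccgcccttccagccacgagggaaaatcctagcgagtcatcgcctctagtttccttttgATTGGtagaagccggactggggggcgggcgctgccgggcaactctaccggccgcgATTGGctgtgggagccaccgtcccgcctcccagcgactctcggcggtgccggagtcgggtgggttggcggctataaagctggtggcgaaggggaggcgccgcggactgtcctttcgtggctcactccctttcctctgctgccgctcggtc
INSIG1, the retention factor, chr7:155297628-155297927, plus strand: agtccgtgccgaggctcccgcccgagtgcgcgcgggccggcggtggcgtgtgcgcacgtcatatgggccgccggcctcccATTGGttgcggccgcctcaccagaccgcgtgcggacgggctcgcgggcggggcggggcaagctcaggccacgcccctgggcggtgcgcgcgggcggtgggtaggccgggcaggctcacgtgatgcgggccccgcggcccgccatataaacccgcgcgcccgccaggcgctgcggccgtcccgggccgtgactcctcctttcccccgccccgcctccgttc
MSMO1, the member with the highest log2 fold change, chr4:165327419-165327718, plus strand: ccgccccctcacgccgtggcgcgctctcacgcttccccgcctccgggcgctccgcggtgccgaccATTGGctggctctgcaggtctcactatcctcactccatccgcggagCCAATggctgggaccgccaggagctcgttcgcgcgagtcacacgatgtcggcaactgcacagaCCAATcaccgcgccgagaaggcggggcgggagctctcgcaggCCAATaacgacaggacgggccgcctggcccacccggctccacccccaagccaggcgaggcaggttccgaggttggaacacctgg
NSDHL, the member with the lowest log2 fold change, chrX:152830813-152831112, plus strand: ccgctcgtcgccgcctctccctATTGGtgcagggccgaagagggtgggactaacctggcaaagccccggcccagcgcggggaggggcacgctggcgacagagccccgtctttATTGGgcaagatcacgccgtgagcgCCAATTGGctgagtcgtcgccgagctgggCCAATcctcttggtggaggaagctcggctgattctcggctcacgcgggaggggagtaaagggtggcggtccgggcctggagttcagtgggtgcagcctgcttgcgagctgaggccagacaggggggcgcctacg
The counts of CCAAT boxes in these windows were 1 in SREBF2, 2 in HMGCS1, 1 in INSIG1, 4 in MSMO1 and 5 in NSDHL, and in NSDHL a pair of boxes on opposite strands shares bases. MSMO1 and NSDHL were picked as the ends of the range of differences, and neither was called. A relation between boxes and differences was not tested.

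Levels per exon length spanned a wide range within the pathway. Levels are given as RPKM, which scales reads by the listed exon length and the library total. ACLY, ATP citrate lyase, stood first at 116 and 119 RPKM in Hx1R8, against 115 and 122 RPKM in Vehicle. It was followed by FADS2, a fatty acid desaturase, at 73.3 and 77.6 RPKM in Hx1R8, against 75.5 and 78.6 RPKM in Vehicle, and by FASN, fatty acid synthase, at 55.0 and 56.5 RPKM in Hx1R8, against 55.0 and 56.7 RPKM in Vehicle. The highest sterol enzyme was DHCR7, which reduces the last precursor to cholesterol, at 51.8 and 53.6 RPKM in Hx1R8, against 50.2 and 53.4 RPKM in Vehicle, and its range overlapped that of FADS1, the next gene in the order.

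The lowest levels belonged to ELOVL6, the elongase of palmitate, at 3.37 and 3.49 RPKM in Hx1R8, against 3.78 and 3.58 RPKM in Vehicle, and to INSIG2, at 4.70 and 4.73 RPKM in Hx1R8, against 4.52 and 4.26 RPKM in Vehicle. Of the 32 pairs of neighbours in the order, 14 did not overlap in their range over the 4 libraries and 18 did. Among tested genes ACLY stood at rank 427 by mean RPKM and ELOVL6 at rank 9027. For FDFT1, LSS and ACACA the listed exons included a second copy on another sequence of the assembly, so that the listed length counts them again. With the exon bases of the main chromosome only, a length chosen after the data were examined, mean levels over the 4 libraries were 13.5 RPKM in place of 6.75 for FDFT1, squalene synthase, 10.7 in place of 5.81 for LSS, lanosterol synthase, and 17.02 in place of 8.51 for ACACA, acetyl-CoA carboxylase. Their fold changes do not use the length, whereas the order and its pairs of neighbours above use the listed length. With the shorter length their places in the order moved from 27 to 18 for FDFT1, 30 to 24 for LSS and 23 to 16 for ACACA. Whether reads that match both copies were left out of the counts was not tested, so these levels may still be too low.

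**Figure D1:**
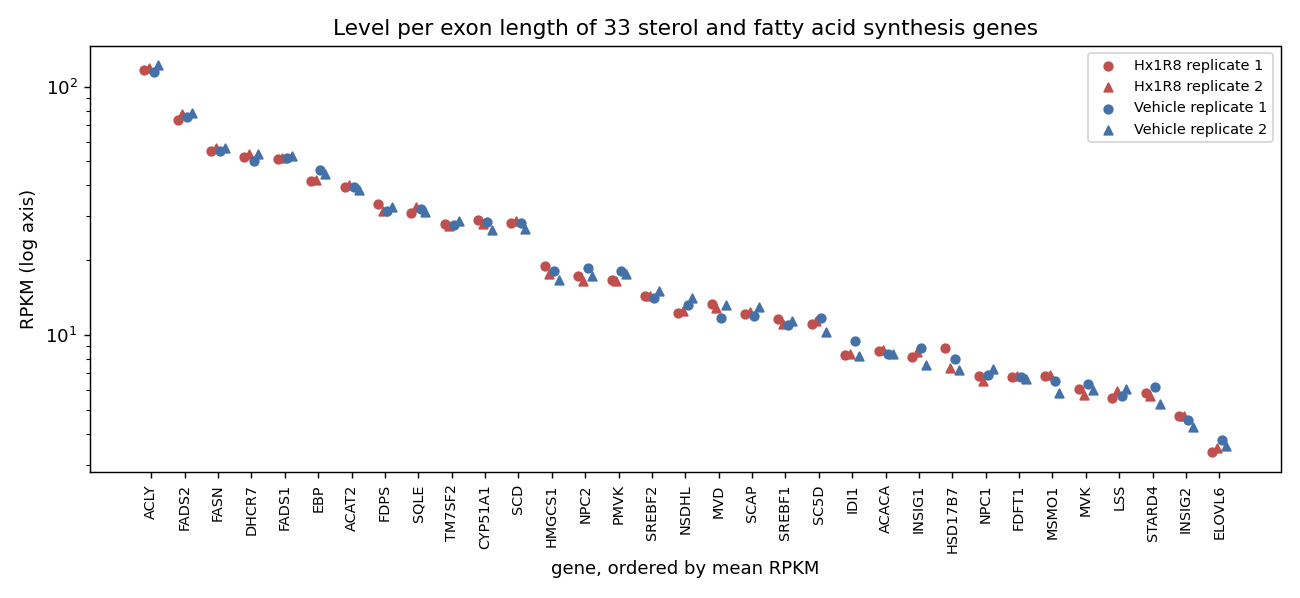
RPKM (log axis) of the 33 genes in each library, ordered by mean RPKM, with Hx1R8 in red and Vehicle in blue and circles and triangles for replicates 1 and 2. The spread between genes, with ACLY at 115 or more and ELOVL6 at 3.78 or less, is far wider than the spread between libraries of 1 gene.

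No sterol or fatty acid gene passed the threshold after Hx1R8. Of the 33 genes 0 were called in either direction, with an adjusted p of 0.9999 for every one by edgeR, and 0 had an unadjusted p under 0.05, against 3.39% of all tested genes. DESeq2 and limma-voom also called 0 of the 33. The log2 fold changes (Hx1R8 over Vehicle) ran from -0.13 to 0.15, 17 above 0 and 16 below, with a median of 0.0013 against -0.0018 over all tested genes. As these are bulk libraries, less RNA per cell and fewer cells with the RNA cannot be told apart.

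For 27 of the 33 genes (81.8%) the whole 95% interval of the fold stayed inside 1.2-fold in either direction, against 57.6% of all tested genes. Among the 8908 tested genes at or above 13.7 CPM, the lowest mean of the 33, 90.6% were bounded as closely. The 6 genes not so bounded were PMVK, MSMO1, NSDHL, HSD17B7, INSIG2 and ELOVL6. Their intervals allowed a fold as low as 0.817 for NSDHL and as high as 1.28 for MSMO1. In 3 of the 33 genes both Hx1R8 libraries lay above both Vehicle libraries, or 9.09% against 14.7% of all tested genes, and in 7 of the 33 both lay below, or 21.2% against 15.2% of all tested genes. The 3 were MSMO1, INSIG2 and ACACA, and the 7 were PMVK, NSDHL, EBP, NPC1, NPC2, ELOVL6 and FADS1.

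**Figure D2:**
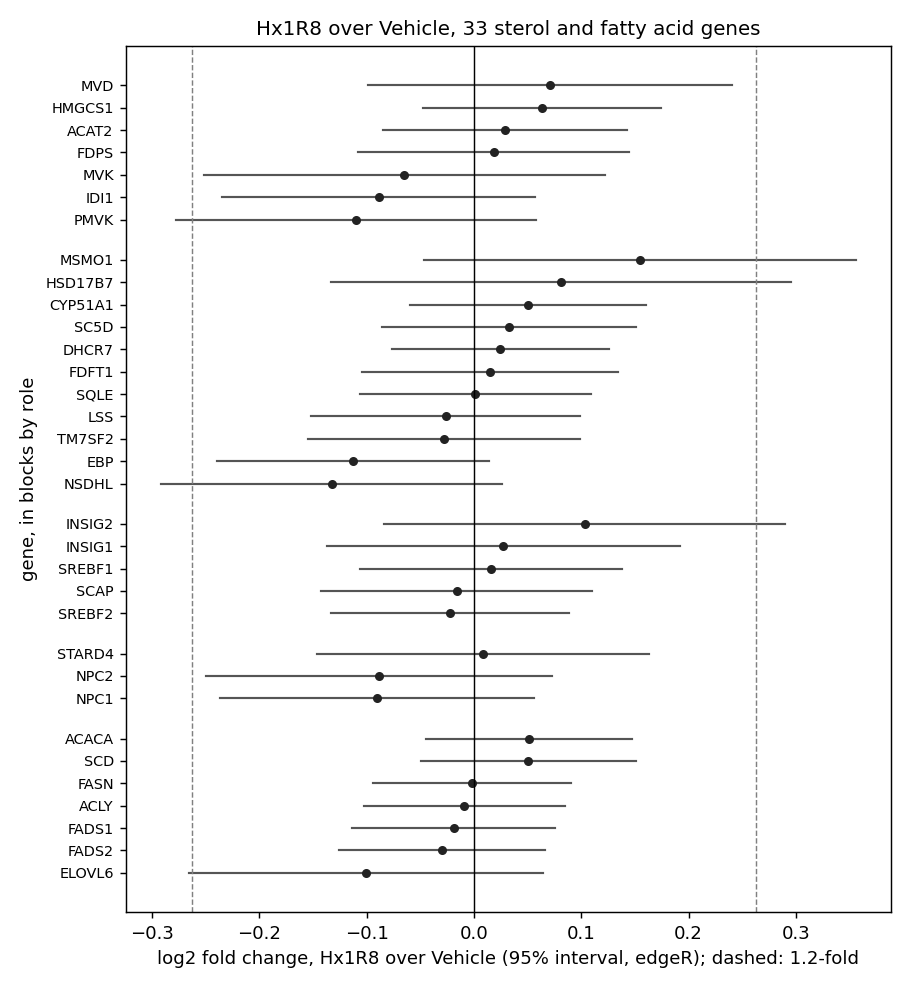
Log2 fold change (Hx1R8 over Vehicle) of each gene as a point with its 95% interval from edgeR, in blocks by role from the mevalonate pathway at the top to fatty acid synthesis at the bottom, with dashed lines at 1.2-fold. Every interval includes 0, and the points lie between -0.13 and 0.15.

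In the mevalonate pathway the 7 enzymes had a median log2 fold change of 0.02. HMGCS1, which joins acetyl-CoA to acetoacetyl-CoA, had 105 and 97.0 CPM in Hx1R8, against 100.3 and 92.3 CPM in Vehicle. The groups overlapped, and in each group replicate 1 was the higher library. The log2 fold change of HMGCS1 was 0.06 (SE 0.055). IDI1, the isomerase that makes the second isoprenoid building block, had 35.8 and 36.1 CPM in Hx1R8, against 40.9 and 35.6 CPM in Vehicle, so that Vehicle replicate 1 stood apart from the other 3 libraries. PMVK, the phosphomevalonate kinase, had 21.2 and 21.1 CPM in Hx1R8, against 23.2 and 22.5 CPM in Vehicle, with a log2 fold change of -0.11 (SE 0.08). It was the 1 gene of the 7 whose groups did not overlap.

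MVD, the decarboxylase that completes isopentenyl diphosphate, had 23.9 and 23.1 CPM in Hx1R8, against 21.01 and 23.7 CPM in Vehicle, where replicate 1 was the low library. The thiolase ACAT2 averaged 72.2 ± 1.07 CPM in Hx1R8 and 70.8 ± 1.57 CPM in Vehicle, and the farnesyl diphosphate synthase FDPS averaged 53.7 ± 2.73 CPM in Hx1R8 and 52.9 ± 1.65 CPM in Vehicle (SD, n = 2 each). In both genes the group means lay closer together than the replicates of either group. MVK, the mevalonate kinase, averaged 16.7 ± 0.650 CPM in Hx1R8 and 17.5 ± 0.587 CPM in Vehicle (SD, n = 2 each). Part of the exon bases of ACAT2 (24.9%) lies opposite TCP1, which had 10896 to 13537 reads per library, and 28.9% of those of FDPS lies opposite RUSC1-AS1, which had 89 to 103. The labels do not state whether counting used strand, so reads from these stretches cannot be assigned to a strand.

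From squalene to cholesterol the 11 enzymes had a median log2 fold change of 0.02 and held both ends of the range. MSMO1, a methylsterol oxidase that removes methyl groups from lanosterol derivatives, had 15.2 and 15.4 CPM in Hx1R8, against 14.5 and 13.0 CPM in Vehicle, with both Hx1R8 libraries above both Vehicle libraries. Its log2 fold change was 0.15 (SE 0.10). NSDHL, the dehydrogenase that acts in the same demethylation, had 24.5 and 25.0 CPM in Hx1R8, against 26.2 and 28.1 CPM in Vehicle, with both Hx1R8 libraries below. Its log2 fold change was -0.13 (SE 0.08), so that enzymes of neighbouring steps lay on opposite sides of 0. EBP, the sterol isomerase, had 47.0 and 47.3 CPM in Hx1R8, against 52.1 and 49.8 CPM in Vehicle, and a log2 fold change of -0.11 (SE 0.06).

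HSD17B7, the ketoreductase of the demethylation steps, had 15.4 and 12.9 CPM in Hx1R8, against 13.9 and 12.7 CPM in Vehicle. Hx1R8 replicate 1 was the high library, and the groups overlapped. SC5D, a sterol desaturase, had 78.2 and 80.4 CPM in Hx1R8, against 82.5 and 72.7 CPM in Vehicle, so that the Vehicle libraries enclosed the Hx1R8 libraries. SQLE, squalene epoxidase, had 91.3 and 96.7 CPM in Hx1R8, against 95.5 and 92.5 CPM in Vehicle, with a log2 fold change of 0.0013 (SE 0.05). CYP51A1, the lanosterol demethylase, averaged 92.1 ± 2.54 CPM in Hx1R8 and 88.9 ± 4.18 CPM in Vehicle (SD, n = 2 each). The log2 fold changes of FDFT1, LSS, the sterol reductase TM7SF2 and DHCR7 lay between -0.03 and 0.02. Rows named as pseudogene copies of FDPS and HSD17B7 held at most 2 reads in any library.

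The regulators had log2 fold changes from -0.02 to 0.10. SREBF2, which encodes the factor that mainly drives cholesterol synthesis, had 82.2 and 82.3 CPM in Hx1R8, against 81.1 and 86.0 CPM in Vehicle. SREBF1, whose products mainly drive fatty acid synthesis, had 58.1 and 55.9 CPM in Hx1R8, against 55.3 and 57.4 CPM in Vehicle. In both genes the groups overlapped, and the 95% intervals of the log2 fold change ran from -0.13 to 0.09 for SREBF2 and from -0.11 to 0.14 for SREBF1. Per exon length the ratio of SREBF2 to SREBF1 was 1.24 and 1.29 in Hx1R8, against 1.28 and 1.31 in Vehicle.

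SCAP, the escort protein, averaged 52.2 ± 0.882 CPM in Hx1R8 and 52.8 ± 2.95 CPM in Vehicle (SD, n = 2 each). INSIG1, itself a target of the SREBPs, had 25.9 and 27.2 CPM in Hx1R8, against 28.0 and 24.1 CPM in Vehicle, where the Vehicle libraries enclosed the Hx1R8 libraries. INSIG2, its relative, had 17.6 and 17.7 CPM in Hx1R8, against 16.9 and 15.9 CPM in Vehicle, and a log2 fold change of 0.10 (SE 0.09). The ratio of INSIG1 to INSIG2 per exon length was 1.73 and 1.81 in Hx1R8, against 1.95 and 1.78 in Vehicle, so the groups overlapped.

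The sterol carriers had log2 fold changes of -0.09 to 0.01. STARD4, a cytosolic sterol carrier and a target of the SREBPs, had 32.5 and 31.7 CPM in Hx1R8, against 34.4 and 29.3 CPM in Vehicle, where the Vehicle libraries again enclosed the Hx1R8 libraries. NPC1, the membrane protein that exports cholesterol from lysosomes, had 32.5 and 31.1 CPM in Hx1R8, against 32.8 and 34.8 CPM in Vehicle. Its soluble partner NPC2 had 24.9 and 23.9 CPM in Hx1R8, against 26.8 and 25.0 CPM in Vehicle. Both Hx1R8 libraries lay below both Vehicle libraries in NPC1 and in NPC2, at -0.09 (SE 0.07) for NPC1 and -0.09 (SE 0.08) for NPC2.

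The fatty acid genes included the 3 most abundant of the 33. Their 7 log2 fold changes ran from -0.10 to 0.05 with a median of -0.01. ACLY had 507 and 519.9 CPM in Hx1R8, against 502 and 532 CPM in Vehicle, and FASN had 465 and 479 CPM in Hx1R8, against 466 and 479.6 CPM in Vehicle. The intervals of the fold ran from 0.931 to 1.06 for ACLY and from 0.937 to 1.06 for FASN. ACACA, the carboxylase between them, had 196 and 199 CPM in Hx1R8, against 190.1 and 191 CPM in Vehicle. Both Hx1R8 libraries lay above both Vehicle libraries in ACACA, with a log2 fold change of 0.05 (SE 0.05).

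SCD, the desaturase that makes oleate, had 148.1 and 150.1 CPM in Hx1R8, against 148.3 and 139.6 CPM in Vehicle, where Vehicle replicate 2 was the low library. ELOVL6 had 22.1 and 22.9 CPM in Hx1R8, against 24.8 and 23.5 CPM in Vehicle, and a log2 fold change of -0.10 (SE 0.08). The ratio of SCD to ELOVL6 per exon length was 8.39 and 8.20 in Hx1R8, against 7.48 and 7.44 in Vehicle, which did not overlap. By the listed length the ratio of FASN to ACACA did not overlap either, at 6.3961 and 6.4804 in Hx1R8, against 6.6023 and 6.757 in Vehicle. The groups overlapped in the ratios of NPC2 to NPC1, FADS2 to FADS1 and FASN to ACLY, and in those of the regulators above. No ratio was tested. A permutation of 2 against 2 cannot go below a two-sided p of 0.333, so no shift is read from these ratios. FADS1 averaged 224 ± 0.563 CPM in Hx1R8 and 227 ± 2.11 CPM in Vehicle, and FADS2 averaged 271 ± 10.99 CPM in Hx1R8 and 276 ± 7.64 CPM in Vehicle (SD, n = 2 each). FADS1 and FADS2 lie head to head on chromosome 11 and share 142 exon bases, 3.26% of FADS1 and 3.96% of FADS2. In FADS1 both Hx1R8 libraries lay below both Vehicle libraries, by a log2 fold change of -0.02 (SE 0.05).

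Summed over the 33 genes, the level was 3145 and 3189 CPM in Hx1R8, against 3152 and 3181 CPM in Vehicle. The 18 sterol synthesis enzymes together had 994 and 993 CPM in Hx1R8, against 999 and 978 CPM in Vehicle, with Vehicle replicate 2 the low library. The 7 fatty acid genes together had 1825 and 1873 CPM in Hx1R8, against 1827 and 1876 CPM in Vehicle, so that replicate 2 was the higher library in both groups. The summed levels therefore differed more within each group than between the groups for the fatty acid genes.

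**Figure D3:**
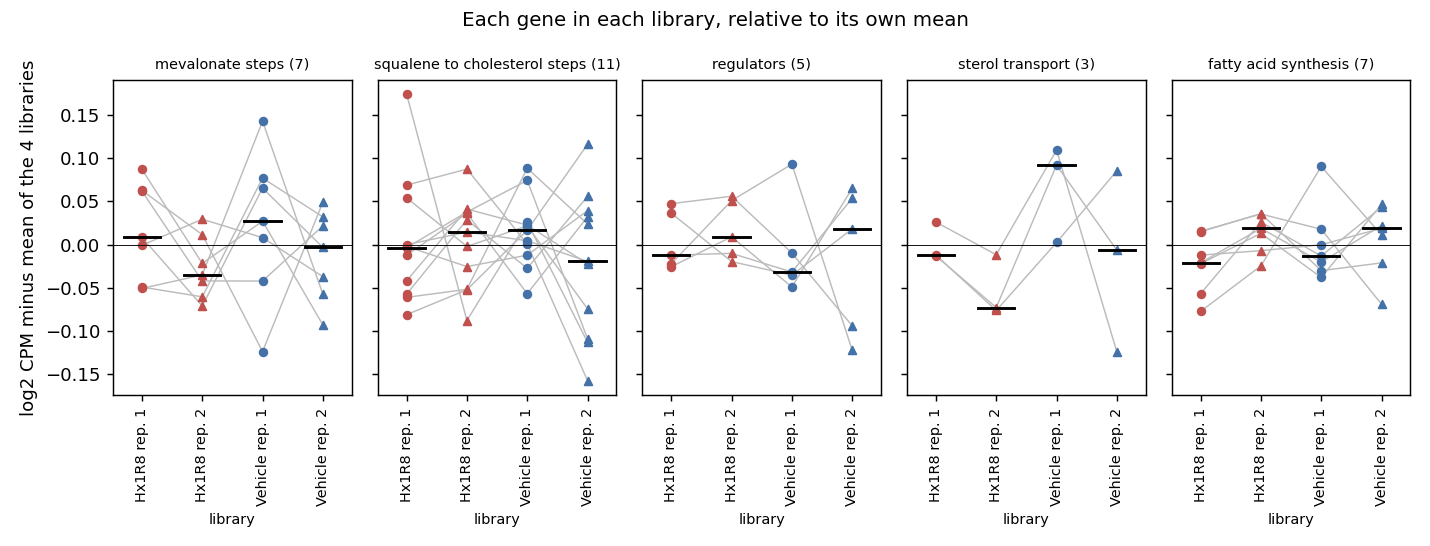
Log2 CPM of each gene minus its mean over the 4 libraries, by role, with Hx1R8 in red on the left and Vehicle in blue on the right, grey lines joining 1 gene and black bars at the median. No role has all its genes on one side of 0 in both libraries of a group and on the other side in both libraries of the other group, and single genes move by up to 0.17 in HSD17B7.

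In single genes the Vehicle replicates differed by more than the groups did, in both directions. Vehicle replicate 2 was lower than Vehicle replicate 1 by 0.15 or more on the log2 scale in STARD4 (-0.23), INSIG1 (-0.22), IDI1 (-0.20), SC5D (-0.18) and MSMO1 (-0.16), a limit set after the values were seen. The counting error of these differences was 0.09 for STARD4, 0.10 for INSIG1, 0.08 for IDI1, 0.06 for SC5D and 0.13 for MSMO1. Between the Hx1R8 replicates the same 5 genes differed by -0.04 to 0.07. Other sterol enzymes were higher in Vehicle replicate 2, by 0.17 in MVD, 0.10 in NSDHL, 0.09 in DHCR7 and 0.08 in LSS. Of these, NSDHL had a larger difference between the groups, at -0.13. At the limit of 0.15, 5 of the 33 genes (15.2%) were lower in Vehicle replicate 2, against 9.50% of the tested genes at or above 13.7 CPM. At a limit of 0.1 the share was 7 of 33 (21.2%), against 19.5% of those genes, so nothing about the 33 genes is read from either count. The fatty acid genes had no difference past either limit between replicates of either group, and FASN, for example, differed by 0.04 in each group. Some of their smaller differences still exceeded the counting error. ACLY differed by 0.085 between Vehicle replicates (counting error 0.022) and FADS2 by 0.083 between Hx1R8 replicates (counting error 0.029). ACACA, ELOVL6 and FADS1 differed by less than their counting error in both groups. The median absolute difference over the 33 genes was 0.04 between Hx1R8 replicates, 0.08 between Vehicle replicates and 0.03 between the groups. Over the tested genes at or above 13.7 CPM these medians were 0.0472, 0.0745 and 0.0355, in the same order. The difference between groups averages 2 libraries on each side, so it tends to be smaller than a replicate difference even without an effect.

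Leaving out a Vehicle library has to move genes picked for a difference between the Vehicle libraries, so the values that follow only give its size. STARD4 was at a log2 fold change of 0.13 without Vehicle replicate 1 and -0.10 without Vehicle replicate 2, INSIG1 at 0.14 and -0.07, SC5D at 0.13 and -0.05, and IDI1 at 0.02 and -0.18. HMGCS1 was at 0.12 without Vehicle replicate 1 and at 0.0053 without Vehicle replicate 2, and MSMO1 at 0.24 and 0.08. None of these was called, the lowest adjusted p being 0.315 for HMGCS1 without Vehicle replicate 1, within a range up to 0.99999 over all alternatives of the 33 genes. In each of these settings the lone Vehicle library is assumed to vary like the Hx1R8 libraries.

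**Figure D4:**
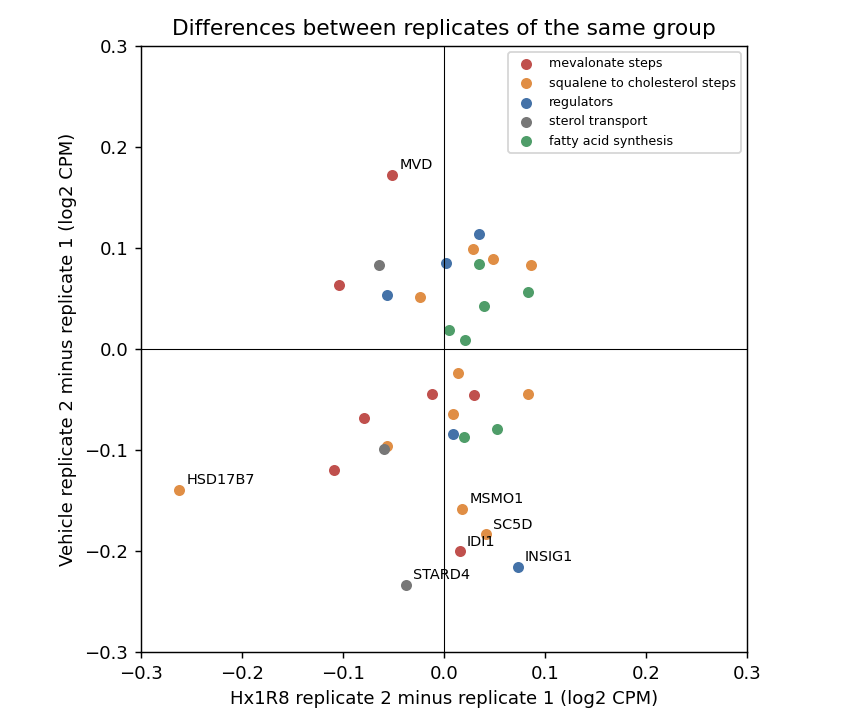
Log2 difference of replicate 2 minus replicate 1 in Hx1R8 (horizontal) and in Vehicle (vertical) for the 33 genes, coloured by role, with genes at 0.15 or more in either group named. STARD4, INSIG1, IDI1, SC5D and MSMO1 lie low on the Vehicle axis and near 0 on the Hx1R8 axis, whereas HSD17B7 lies at -0.26 on the Hx1R8 axis.

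Genes around the pathway were described from 6 further lists of 87 genes, of which 84 were tested and 0 were called. Of the 84, 2 (2.38%) had an unadjusted p under 0.05, NUS1 and OSBP, against 3.39% of all tested genes. NUS1, a subunit of the prenyltransferase that makes dolichol from farnesyl diphosphate, had 124 and 136 CPM in Hx1R8, against 147 and 146 CPM in Vehicle, or -0.17 on the log2 scale (SE 0.05), with an adjusted p of 0.976 by edgeR. OSBP, an oxysterol-binding lipid transfer protein, had 153 and 155 CPM in Hx1R8, against 139 and 144 CPM in Vehicle, or 0.12 on the log2 scale (SE 0.05), with an adjusted p of 0.9999 by edgeR. The other genes of these lists had an adjusted p of 0.9999 where they are named here.

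The 12 genes of SREBP processing and sterol-regulated degradation had a median log2 fold change of 0.01. All 12 were bounded within 1.2-fold, against 90.6% of the tested genes at or above 13.7 CPM. The list included ERLIN1, which takes part in sterol-regulated degradation at the endoplasmic reticulum, at 0.07 (SE 0.06). The ubiquitin ligase RNF145 was at -0.03 (SE 0.05), and SAR1A, a GTPase of the vesicles that leave the endoplasmic reticulum, at 0.02 (SE 0.05). The 13 genes of isoprenoid branches had a median of 0.03, with PDSS2, a subunit of the enzyme that makes the coenzyme Q side chain, at 0.15 (SE 0.10) and the farnesyltransferase subunit FNTA at -0.11 (SE 0.07). The 11 tested genes of LXR targets, efflux and esterification had a median of -0.01, with the lipoprotein gene APOE at -0.38 (SE 0.27), on 1.22 to 1.83 CPM over the 4 libraries, and the phospholipid acyltransferase LPCAT3 at 0.12 (SE 0.09).

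The 18 tested genes of other fatty acid supply, elongation and activation had a median of 0.01, with the elongase ELOVL7 at 0.11 (SE 0.10). The 15 tested genes of fatty acid oxidation had a median of -0.01, with 2 genes (13.3%) higher and 5 (33.3%) lower in both Hx1R8 libraries than in both Vehicle libraries, against 14.7% and 15.2% of all tested genes. None of these 15 genes was called, and none had an unadjusted p under 0.05. Among them ACADVL, the very long chain acyl-CoA dehydrogenase, was at -0.08 (SE 0.05) and SLC25A20, the mitochondrial carnitine carrier, at 0.17 (SE 0.12). The 15 genes of glycerolipids and lipid droplets had a median of -0.0017, with DGAT2, which completes triacylglycerol, at 0.33 (SE 0.18). DGAT2 had 4.24 and 4.82 CPM in Hx1R8, against 3.37 and 3.87 CPM in Vehicle, and its unadjusted p was 0.0693 by edgeR. Of the 84 tested genes, 12 (14.3%) had both Hx1R8 libraries above both Vehicle libraries and 15 (17.9%) had both below, near the 14.7% and 15.2% of all tested genes.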

How the data were processed

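RNA from 4 samples of NCI-H520 was sequenced. The submitters' processing notes name STAR 2.7.9 and the build hg38. No counting tool, annotation or strand setting is named there or in the labels. The deposited table holds the authors' whole-number counts per gene for 28277 genes, with exon coordinates and exon length. Of its lines 2 were broken and were left out, and 0 rows named no gene. Total counts were 17259403 and 20920857 in Hx1R8, against 17483349 and 17352323 in Vehicle, so that 3 counts correspond to 0.143 to 0.174 CPM. Such limits cover counting error only.

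From these counts, TMM-scaled CPM and RPKM (from the deposited exon length) were computed. The main test was edgeR's (version 4.0.16, under R 4.3.3, with filterByExpr, TMM, two-sided quasi-likelihood test, group as the only term), with Benjamini-Hochberg adjustment over the 14482 genes that passed the filter and a threshold of 0.05. The SE is the fold change over the root of the F statistic, and 95% intervals use 2 residual and 36.92 prior degrees of freedom. The fit was tested on simulated counts with the same spread in both groups, so a larger spread in Vehicle was not covered. Alternatives were DESeq2 1.42.0, limma-voom (limma 3.58.1), other scalings and filters, robust dispersions, a replicate block and each library left out. Exon length on the main chromosome only was added after the data were examined.

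The labels do not say that replicates came from separate cultures, so the p-values reflect no more than the spread among the 4 samples, possibly a technical one. An exact permutation test of 2 against 2 cannot go below a two-sided p of 0.333, so none was run on single values. The members and all other lists were chosen with earlier results of these data known. Named were every member, up to 3 genes of each further pathway list by smallest unadjusted p, and markers as levels. Promoter windows came from RefSeq (GRCh38.p14), and ACAT2, FDFT1, SQLE and FASN were not matched.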

Additional observations from a re-analysis of the deposited data

How the results depend on the processing

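None of the 33 genes was called under any alternative, with adjusted p-values no lower than 0.315. Of 429 recomputed log2 fold changes 29 changed sign, 2 of them with all libraries (FASN, at 0.0024 with no low-count filter and 4e-04 with DESeq2) and 27 with a library left out, and 17 of the genes kept their sign throughout. Of those 17, 14 moved by over 1.5 times when a library was left out, among them MSMO1 (0.0802 to 0.2363), NSDHL (-0.1815 to -0.0802), INSIG2 (0.0638 to 0.146), ELOVL6 (-0.1372 to -0.0599), NPC1 (-0.1317 to -0.0467), NPC2 (-0.135 to -0.0385), SCD (0.01 to 0.0949), CYP51A1 (0.0048 to 0.0989) and HMGCS1 (0.0053 to 0.1234). The other 3 were ACACA, EBP and PMVK. In the genes that changed sign, values with 1 library left out ran from -0.0507 to 0.0358 for ACLY, -0.0188 to 0.072 for DHCR7, -0.0725 to 0.0121 for FADS2, -0.0227 to 0.0216 for FASN, -0.0307 to 0.0716 for FDPS, -0.0448 to 0.2154 for HSD17B7, -0.1831 to 0.0151 for IDI1, -0.0736 to 0.1399 for INSIG1, -0.0723 to 0.0184 for LSS, -0.0136 to 0.1611 for MVD, -0.0539 to 0.1273 for SC5D, -0.0722 to 0.0439 for SCAP, -0.0426 to 0.0422 for SQLE, -0.0113 to 0.0446 for SREBF1, -0.0647 to 0.0225 for SREBF2 and -0.1014 to 0.13 for STARD4. The median over the 33 genes ran from -0.0161 to 0.0096, and the number called ran from 0 to 0. Over all tested genes, the number called higher ran from 2 to 41 and lower from 1 to 38, with 41 higher and 38 lower without Vehicle replicate 1, 13 and 18 without Vehicle replicate 2, 2 and 5 without Hx1R8 replicate 1, and 5 and 1 without Hx1R8 replicate 2. The lone library of a group is assumed there to vary like the other group, and the cause was not tested. The number called higher was 1 with DESeq2 and 1 with robust dispersions, against 2, and the cause was not tested. A replicate block in the fit left 2 genes called higher, 1 lower and 0 of the 33, with a median of 8e-04. The replicate differences of the groups correlated at r = 0.035 across all 14482 tested genes, low-count genes included. Whether samples of the same replicate number share a batch was not tested. With exon bases of the main chromosome only, mean RPKM was 13.5 for FDFT1, 10.7 for LSS and 17.02 for ACACA. With these 4 libraries the intervals allow a fold beyond 1.2 for 6 of the 33 genes.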
